A study of Mus musculus with 6 samples.

Results

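The Krüppel-like factor (KLF) genes of regulatory T cells (Tregs) sorted from mouse tumors are described here. The 9 genes Klf2, Klf3, Klf4, Klf6, Klf7, Klf9, Klf10, Klf12 and Klf13 were taken by symbol from a count table of 23420 genes, of which 10352 had enough counts to be tested for treatment. All 9 were among those tested. The genes were chosen by name with their counts and fold changes in these libraries already known, and the comparison of treated with untreated libraries belongs to the rule that names them. Their levels and fold changes are therefore descriptions, and the calls quoted for them are those of a fit over all tested genes. The Tregs came from BALB/c Foxp3-GFP mice, in which cells that express the Treg factor FoxP3 fluoresce green, bearing tumors of 10000 injected T11 cells, a claudin-low model of triple-negative breast cancer. One group of mice was untreated, and the other was given the anti-PD-1 antibody J43 intraperitoneally, 200 µg per injection and 2 injections per week. In both groups tumors were taken at 150 mm2 and green cells were sorted to over 90% purity, so that other cells can remain. There were 3 untreated libraries, numbered 1, 2 and 3, and 3 anti-PD-1 libraries, numbered 4, 5 and 6, and the labels do not say whether each came from its own mouse, so that the spread between libraries may be technical. The sources used here state no age for the mice. The libraries of mice given the antibody are called treated.

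KLF proteins are transcription factors that share zinc fingers at their C-terminal end and bind GC-rich DNA and the CACCC element. Their N-terminal parts divide the family: Klf2, Klf4, Klf6 and Klf7 belong to a branch that mostly activates, Klf3 and Klf12 recruit the corepressor CtBP, and Klf9, Klf10 and Klf13 recruit the corepressor Sin3. In T cells Klf2 is known for holding naive cells in quiescence and for driving S1pr1, by which lymphocytes recirculate through blood and lymph nodes. T cell receptor and PI3K signaling lower Klf2, whereas FOXO1 and the kinase ERK5 acting through MEF2 factors raise it.

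The DNA just before the start of transcription is shown for 4 of the 9 genes: Klf2, Klf3 and Klf7, whose fitted change was above 2-fold, and Klf6, which had the highest level of the family. Each sequence is the 250 bases before the RefSeq start, 5′ to 3′ on the strand of the gene, in GRCm38.p6, the assembly that mm10 names. Capitals mark each CACCC element, which reads GGGTG where it lies on the other strand, and in Klf2 also a match to the MEF2 element.
Klf2, chr8:72318812-72319061, plus strand: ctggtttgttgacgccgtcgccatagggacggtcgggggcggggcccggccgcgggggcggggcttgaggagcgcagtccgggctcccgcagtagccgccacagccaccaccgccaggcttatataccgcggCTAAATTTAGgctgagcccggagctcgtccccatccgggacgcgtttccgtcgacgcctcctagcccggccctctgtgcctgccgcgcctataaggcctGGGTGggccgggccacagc
Klf3, chr5:64803271-64803520, plus strand: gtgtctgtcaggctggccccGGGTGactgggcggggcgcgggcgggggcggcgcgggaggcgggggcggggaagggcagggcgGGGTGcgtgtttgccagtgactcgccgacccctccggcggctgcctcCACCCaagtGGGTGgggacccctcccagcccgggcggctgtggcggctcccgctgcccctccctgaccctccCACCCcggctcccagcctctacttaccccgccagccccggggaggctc
Klf7, chr1:64121390-64121639, minus strand: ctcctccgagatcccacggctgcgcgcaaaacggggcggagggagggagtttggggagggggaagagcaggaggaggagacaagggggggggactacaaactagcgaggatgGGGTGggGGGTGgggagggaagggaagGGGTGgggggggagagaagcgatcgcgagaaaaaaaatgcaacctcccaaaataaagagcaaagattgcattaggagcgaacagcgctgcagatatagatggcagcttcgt
Klf6, chr13:5861239-5861488, plus strand: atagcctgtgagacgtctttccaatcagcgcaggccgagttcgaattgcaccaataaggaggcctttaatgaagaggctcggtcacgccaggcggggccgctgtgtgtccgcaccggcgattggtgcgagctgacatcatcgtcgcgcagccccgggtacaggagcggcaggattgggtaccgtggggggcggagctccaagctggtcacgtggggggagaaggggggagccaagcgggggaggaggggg
The CACCC element itself was found, on either strand, in the windows of 6 of the 8 members that have a RefSeq promoter sequence, and in 52.0% of 32851 promoter windows of that length. Klf3 held 5 copies, Klf7 held 3, and Klf2, Klf9, Klf12 and Klf13 held 1 each. The Klf2 window was the only 1 of the 8 with a match to the MEF2 element, CTAAATTTAG at position -118 counted from the start, an element found in 0.508% of all windows. GC boxes (GGGCGG on either strand) lay in 6 of the 8 windows and in 32.7% of all windows. In Klf3 the GC box at -172 shares its last base with the CACCC element at -167, and in Klf13 the box at -27 shares its last base with the element at -22. A FOXO element (TGTTTAC on either strand) was found in Klf9 alone among the 8, and in 3.17% of all windows. An AP-1 element (TGANTCA) was also found only in Klf9, where it overlaps the CACCC element, and in 6.75% of all windows. Further elements were searched. CCAAT boxes lay in 3 of the 8 windows (33.8% of all windows), and a TATA box (12.4%) and a STAT element (7.02%) in 1 each. CRE (1.55%), serum response (1.47%) and glucocorticoid response elements (0.368%) lay in 0 of the 8. These matches describe letters in a short window and are not measured binding. Klf10 has no entry in that table.

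Total counts ran from 4766533 to 6686774 per library, and all untreated libraries were deeper than all treated libraries. The 9 KLF genes together took between 0.112% and 0.197% of the counts of a library. Levels are counts per 1000000 counts (CPM) after scaling of the libraries by trimmed mean of M values (TMM), and levels of different genes are compared as CPM per kilobase of the gene model (CPM per kb). Foxp3 stood between 438 and 461 CPM in untreated and between 462 and 563 CPM in treated libraries. The 8 Treg and CD4 T cell markers, Foxp3 included, summed to 6636 to 7393 CPM untreated and 5645 to 6406 CPM treated, so that the sum was lower in all treated libraries. Of the 8, 3 lay above 0 and 5 below, none was called by edgeR or DESeq2, and the groups did not overlap in 4, 2 in each direction (background 7.18% higher and 6.44% lower). The part of this difference in the KLF levels was not tested. Endothelium and myeloid cells are rich in Klf2 and Klf4, so their markers were read beside the family. Of 6 endothelial markers, Cdh5, Kdr, Tek and Tie1 had no count in any library, where a count of 0 allows up to 0.629 CPM in the shallowest, and Pecam1, which T cells express too, made up nearly all of a summed 65.0 to 73.9 CPM untreated and 83.8 to 123 CPM treated. The 8 macrophage and monocyte markers summed to 17.6 to 38.1 CPM in untreated and 16.9 to 42.9 CPM in treated libraries. The 5 epithelial markers summed to 13.2 to 20.2 CPM untreated and 13.6 to 20.1 CPM treated. Most of it was Epcam (11.4 to 20.1 CPM over all libraries), while Krt5, Krt8 and Krt14 had no count. Whether T11 cells carry these markers was not examined, so these values do not measure tumor cell content. The 5 fibroblast markers summed to 3.94 to 7.70 CPM untreated and 5.81 to 7.03 CPM treated, with Dcn at 0 throughout. The 3 neutrophil markers in the table summed to at most 0.207 CPM. CD8 T cell markers summed to 11.1 to 31.2 CPM untreated and 18.8 to 51.2 treated. B cell markers summed to 3.21 to 10.8 and 4.96 to 19.1, and dendritic markers to 1.97 to 16.2 and 8.67 to 15.8. NK cell markers summed to 8.82 to 13.4 and 2.68 to 10.4, and these ranges overlapped. Siglech had no count untreated and 1.65 to 5.39 CPM treated, and Zbtb46 averaged 7.41 and 6.63. Ms4a1 averaged 1.53 and 5.60, and Cd79a 1.97 and 0.55. The part of these markers in KLF levels was not tested. In bulk RNA, a change in the share of cells that express a gene and a change in RNA per cell cannot be told apart.

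Klf6 and Klf2 dominated the family by level per kilobase. In CPM not divided by length, Klf6 (743) was followed by Klf13 (270) and then Klf2 (255) over the 6 libraries. Klf13 stood at 247 CPM against 120 for Klf2 untreated, and at 293 against 389 treated. Per kilobase, Klf6 averaged 176 CPM per kb over the 6 libraries and Klf2 140, followed by Klf13 (42.2), Klf10 (25.8), Klf3 (20.7), Klf4 (9.80), Klf7 (6.24), Klf9 (5.73) and Klf12 (3.50). Among the 10352 tested genes, Klf6 stood at place 243 by this measure and Klf2 at place 326, whereas Klf12 stood at place 7627. The steps from Klf2 to Klf13 and from Klf13 to Klf10 separated the genes in all 6 libraries without overlap. Each of the other 6 pairs of neighbours in the order overlapped in range. Klf6 lay above Klf2 in 5 of 6 libraries, the exception being treated library 6. Taken over the treated libraries alone, Klf2 (214 ± 36.7 CPM per kb, SD, n = 3) stood first with Klf6 (206 ± 28.3) beside it, a difference within the spread of libraries. In the untreated libraries Klf6 (147 ± 6.21) lay above Klf2 (66.3 ± 11.2) without overlap. The lower places depend on the gene model. The deposited model of Klf7 holds 1336 bases and that of Klf3 2314 bases, where the union of GENCODE M21 exons holds 8131 and 11243 bases. Dividing the same counts by GENCODE lengths put Klf7 last at 1.03 CPM per kb and Klf3 sixth at 4.26. Klf6, Klf2, Klf13 and Klf10 kept their order. Reads that lie only in the added bases were not counted, so these values can be too low and cannot settle the lower places.

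**Figure D1:**
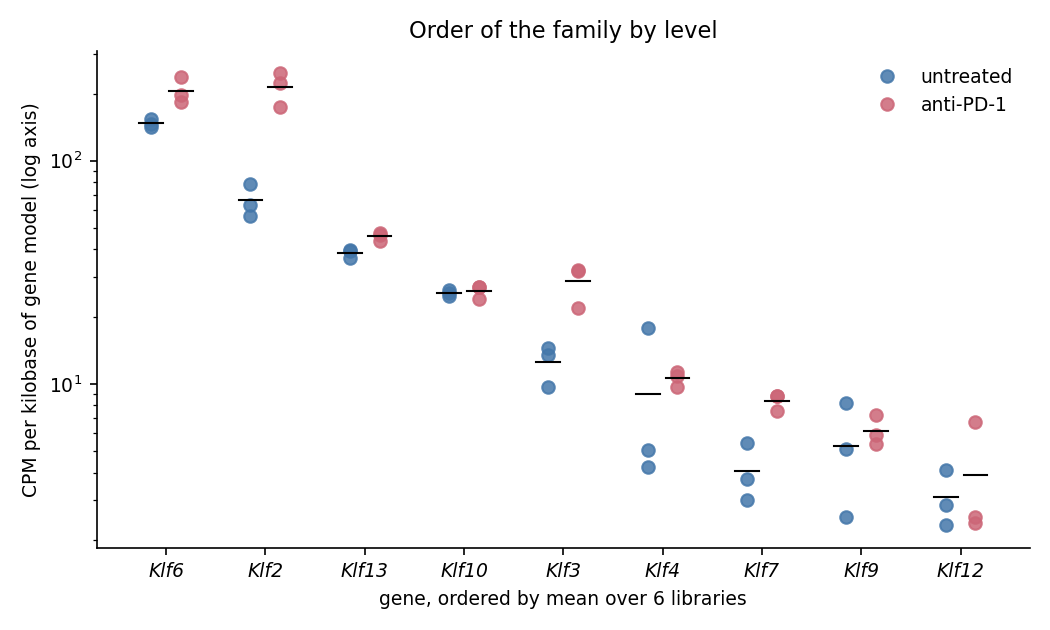
Level of the 9 KLF genes in CPM per kilobase of gene model on a log axis, with genes ordered by their mean over 6 libraries; points are libraries, colored by group, and bars are group means. Klf6 and Klf2 stand at 56.7 CPM per kb or more in all libraries, and Klf13 is the next gene with no overlap.

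Klf2, the quiescence and recirculation factor of the activating branch, rose after anti-PD-1. It lies on chromosome 8 (72319062 to 72321654, plus strand). Klf2 stood at 143, 103 and 115 CPM in untreated libraries 1, 2 and 3 and at 316, 404 and 447 CPM in treated libraries 4, 5 and 6. The lowest treated library was above the highest untreated library by more than the range within the untreated group. The fitted ratio was 3.22-fold, with a 95% interval from 2.51 to 4.14. In edgeR's quasi-likelihood test over all 10352 genes the log2 fold change was 1.69 ± 0.17 (SE, Benjamini-Hochberg adjusted p = 1.25e-05). Klf2 took 21.2% ± 1.69 of the KLF level summed per kilobase in untreated and 38.9% ± 4.75 in treated libraries (SD, n = 3 per group). Its ratio to Klf6, taken per kilobase within a library, is not affected by any scaling of libraries. That ratio was 0.513, 0.402 and 0.435 in the untreated libraries, against 0.888, 0.936 and 1.34 in the treated libraries.

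Klf6, an injury- and stimulus-induced activator and the most abundant member, lies on chromosome 13 (5861489 to 5870393, plus strand). Klf6 stood at 647, 595 and 616 CPM in the untreated libraries, against 827, 1001 and 773 CPM treated. The groups did not overlap, and treated library 5 was the highest. The log2 fold change was 0.49 ± 0.14 (SE), a ratio of 1.40 with a 95% interval from 1.14 to 1.71, and edgeR's adjusted p over all genes was 0.388. Klf7, best known from neuronal development, lies on chromosome 1 (64035671 to 64121389, minus strand) and is scarce. It had 25, 28 and 43 counts in the untreated libraries, against 62, 57 and 49 in the treated libraries, that is 4.01, 5.01 and 7.27 against 11.8, 11.8 and 10.1 CPM. The groups did not overlap, and the fitted ratio of 2.07 had a wide 95% interval from 1.01 to 4.24 (edgeR adjusted p = 0.596). At these counts a difference of this size was not called.

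Klf4, an antiproliferative factor that is high in monocytes and epithelia, differed most among the untreated libraries, with a coefficient of variation of 84.2% against 7.72% in the treated libraries. It lies on chromosome 4 (55527137 to 55532475, minus strand). Klf4 stood at 54.1, 15.4 and 12.8 CPM in untreated libraries 1, 2 and 3 and at 29.4, 34.2 and 33.0 CPM in the treated libraries. Untreated library 1 was above all others and untreated libraries 2 and 3 below all others, so the groups overlapped although the treated libraries lay close together. The log2 fold change was 0.20 ± 0.42 with all libraries, 1.19 without untreated library 1, -0.07 without untreated library 2 and -0.14 without untreated library 3, and edgeR called none of these. Untreated library 1 was at least 2-fold above both other untreated libraries in 3.78% of tested genes, against 2.83% and 3.42% for the other 2 untreated libraries. It was at least 2-fold above all 5 other libraries in 124 of the tested genes, against 12 to 51 genes for each of the others. Its 8 macrophage and monocyte markers summed to 17.6 CPM, the lowest untreated value, and its 5 dendritic cell markers to 16.2 CPM, all of it Zbtb46, with Flt3, Xcr1, Clec9a and Siglech at 0. The dendritic sum was 1.97 and 4.39 CPM in the other untreated libraries and 8.67 to 15.8 CPM in the treated ones. The part of these markers in the level of Klf4 was not tested.

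**Figure D2:**
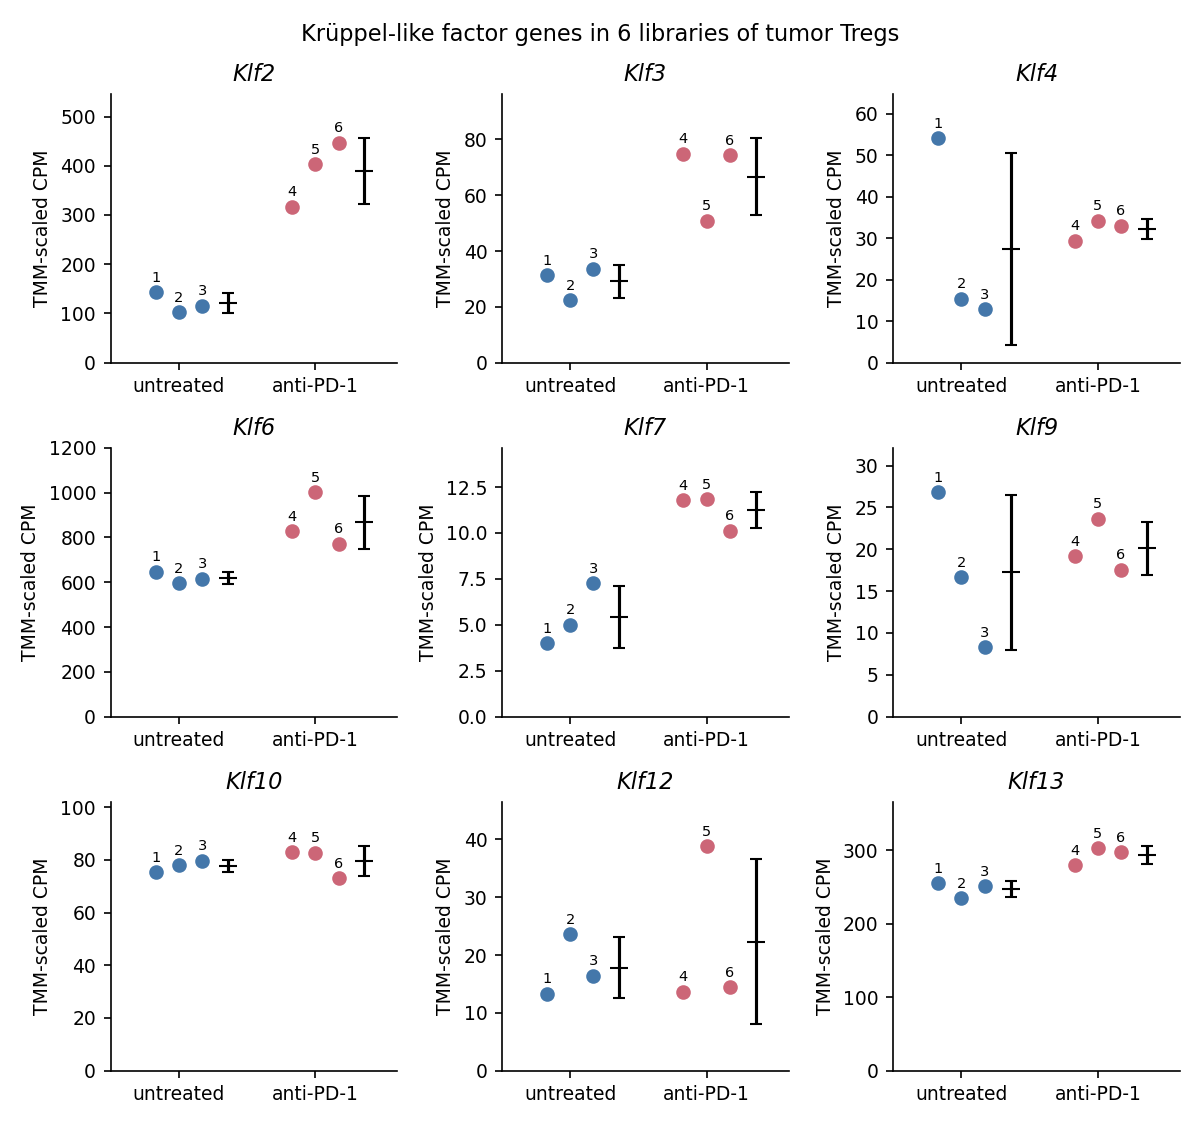
TMM-scaled CPM of each KLF gene in untreated (blue) and anti-PD-1 treated (red) libraries, numbered by library, with the group mean and SD over 3 libraries as black bars. The groups are apart for Klf2, Klf3, Klf6, Klf7 and Klf13, while Klf4 and Klf9 are high in untreated library 1 and Klf12 is high in treated library 5.

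Of the CtBP-binding repressors, Klf3 had higher values after anti-PD-1 and Klf12 did not separate the groups. Klf3, which competes for the sites of activating KLF proteins, lies on chromosome 5 (64803523 to 64830129, plus strand). It stood at 31.3, 22.4 and 33.6 CPM in the untreated libraries, against 74.8, 50.8 and 74.3 CPM in the treated libraries, and the groups did not overlap. The fitted ratio was 2.29, with a 95% interval from 1.59 to 3.28. The edgeR adjusted p over all genes was 0.0933, so Klf3 did not pass, whereas DESeq2 called it (adjusted p = 0.00925; range over all alternatives 0.0043 to 0.471). Without untreated library 1, the middle of the 3 untreated values, edgeR called it as well (log2 fold change 1.25, adjusted p = 0.0354). With any other library left out, edgeR did not call it (adjusted p from 0.136 to 0.471). The deposited Klf3 model is shorter than the GENCODE exons, so reads from the rest of those exons are not in its counts.

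Klf12, a repressor first described at the AP-2 alpha gene, lies on chromosome 14 (99870640 to 100149796, minus strand). It stood at 13.3, 23.6 and 16.4 CPM untreated and at 13.7, 38.8 and 14.5 CPM treated. Treated library 5 alone was above all untreated libraries, at 187 counts against 70 and 72 in the other treated libraries. The log2 fold change was 0.33 ± 0.40 with all libraries and -0.33 without that library, and edgeR's adjusted p was 0.864 and 0.971. Library 5 also held the most CD8 T cell marker counts (51.2 CPM summed, against 11.1 to 31.2 CPM in the others) and B cell marker counts (19.1 CPM, against 3.21 to 11.8 CPM); their part in the level of Klf12 was not tested.

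None of the Sin3-binding repressors passed the test. Klf13, a T cell factor known for late activation of the chemokine gene Ccl5, lies on chromosome 7 (63886351 to 63938915, minus strand). Klf13 stood at 255, 235 and 251 CPM untreated and at 279, 303 and 298 CPM treated. The groups did not overlap but lay close, with a ratio of 1.19 and a 95% interval from 0.961 to 1.46 (edgeR adjusted p = 0.691). Klf10, the TGF-beta-inducible early gene through which TGF-beta supports Foxp3, lies on chromosome 15 (38294413 to 38300707, minus strand). It was the steadiest member of the untreated group, at 75.2, 77.9 and 79.8 CPM, and stood at 82.8, 82.8 and 73.1 CPM treated. The groups overlapped, and the 95% interval of the ratio ran from 0.779 to 1.35 around 1.03, which leaves room for changes in either direction. Klf9, a gene induced by glucocorticoids and thyroid hormone, lies on chromosome 19 (23141226 to 23166911, plus strand). It stood at 26.8, 16.7 and 8.28 CPM untreated and at 19.2, 23.6 and 17.6 CPM treated. The treated values lay within the untreated range, and the log2 fold change of 0.21 ± 0.39 became 0.70 without untreated library 1 and -0.13 without untreated library 3 (edgeR adjusted p = 0.920 with all libraries).

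In the deposited table no exon of the 9 genes overlaps an exon of another listed gene. In GENCODE M21, genes on the opposite strand overlap the spans of Klf3 (Gm20033), Klf7 (Gm13748) and Klf13 (E030018B13Rik and Gm27252), and on the same strand those of Klf3 (C230096K16Rik), Klf7 (Mir6899) and Klf9 (Mir1192). The authors' counting used strand, per the file headers.

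In edgeR's fit, 1 of the 9 genes was called higher and none lower, where 0.029% of all tested genes were called higher and 0.0% lower. DESeq2 called 2 of the 9 higher, Klf2 and Klf3, and none lower, where it called 0.164% of all tested genes higher and 0.058% lower. All 9 fitted changes lay above 0, as did 50.1% of tested genes, and the median over the 9 was 0.33 on the log2 scale against 0.00 over all tested genes. The groups did not overlap, with anti-PD-1 higher, in 5 of the 9 genes and in 7.18% of tested genes, and with anti-PD-1 lower in 0 of the 9 and in 6.44% of tested genes. At an unadjusted p under 0.05 in edgeR stood 4 of the 9 with higher values, Klf2, Klf3, Klf6 and Klf7, and 4.23% of tested genes, against 0 of the 9 and 4.07% with lower values. Nothing is read from these shares, since the comparison belongs to the rule that named the genes.

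**Figure D3:**
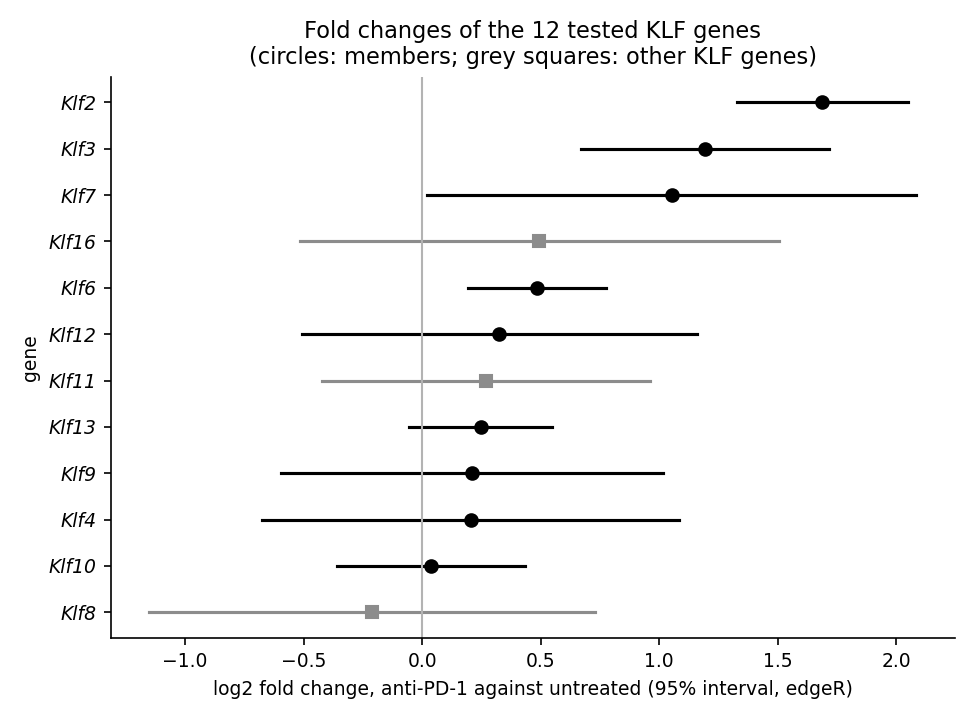
Log2 fold change of anti-PD-1 against untreated with 95% interval from edgeR for the 9 KLF genes (black circles) and the 3 other tested KLF genes (grey squares). Intervals of Klf2, Klf3, Klf6 and Klf7 lie above 0, and those of the other 8 genes include it.

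Summed over the 9 genes, the KLF level was 341, 288 and 305 CPM per kb in the untreated libraries, against 500, 590 and 559 CPM per kb in the treated libraries. The group means differed by 238 CPM per kb, a ratio of 1.77. Klf2 made up 62.1% of that difference per kilobase, Klf6 24.6%, Klf3 6.81% and Klf13 3.03%. These shares depend on the gene model lengths. In CPM not divided by length, the sum was 1161.3 ± 79.9 untreated and 1781.5 ± 151 treated (SD, n = 3 per group). In that unit Klf2 averaged 120 CPM untreated and 389 treated, and Klf6 619 and 867. As shares of the sum per kilobase, Klf10 stood at 8.24% ± 0.88 untreated and 4.78% ± 0.59 treated, and Klf13 at 12.4% ± 0.67 and 8.36% ± 0.36 (SD, n = 3 per group). The CPM of neither was lower on average after anti-PD-1, so their smaller shares go with the larger sum.

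**Figure D4:**
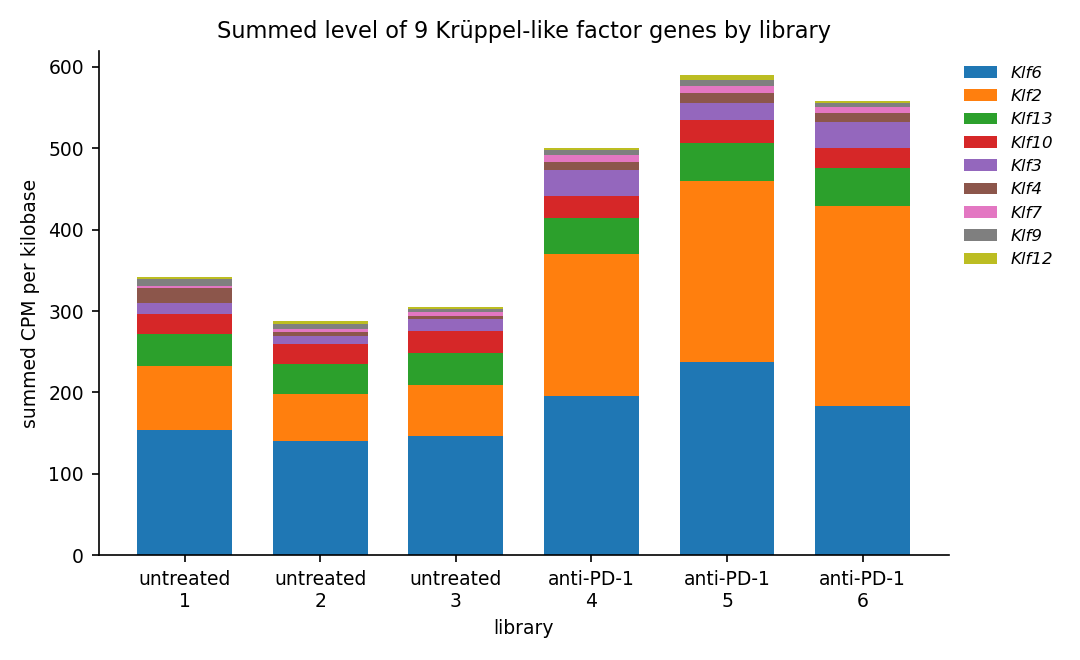
Summed CPM per kilobase of the 9 KLF genes in each library, stacked by gene. The sum runs from 288 to 341 in the untreated and from 500 to 590 in the treated libraries. The Klf2 segment (orange) makes up most of the difference on this scale per kilobase.

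Of the 8 other KLF genes in the table, 3 were tested. Klf11 averaged 8.27 CPM per kb over the 6 libraries, between Klf4 and Klf7 in the order by level, and Klf14, Klf15 and Klf17 had no count in any library. Klf11, a Sin3-binding relative of Klf10, had 319, 93 and 125 counts in the untreated libraries, against 198, 181 and 162 in the treated libraries. Untreated library 1 was at least 2-fold above both other untreated libraries in Klf11, as it was in Klf4. Klf8, a CtBP-binding relative of Klf3, stood at 12.9 ± 0.47 CPM untreated and 10.96 ± 7.14 CPM treated, and Klf16 at 7.87 ± 2.40 and 11.01 ± 4.70 CPM (SD, n = 3 per group). None of the 3 was called, with edgeR's adjusted p from 0.827 to 0.933. The SP factors, the closest relatives of the KLF family, share its zinc fingers and bind GC boxes. Of the 9 SP genes counted, 5 were tested and none was called, with log2 fold changes from -0.20 for Sp1 to 0.42 for Sp6. Sp3 stood at 566 ± 25.8 CPM untreated and 526 ± 58.9 CPM treated, Sp1 at 270 ± 34.3 and 234 ± 31.1, Sp4 at 225 ± 27.9 and 224 ± 16.2, Sp2 at 37.8 ± 9.39 and 47.7 ± 2.86, and Sp6 at 4.88 ± 0.96 and 6.59 ± 4.24.

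Genes known to control Klf2 and Klf4 did not pass the test. Of 14 such genes, all were tested, 10 lay above 0 and none was called by edgeR or DESeq2, and the median log2 fold change was 0.21. Smurf1, a ubiquitin ligase that degrades Klf2 protein, stood at 26.6, 36.9 and 34.99 CPM untreated and at 55.1, 55.4 and 41.1 CPM treated, and the groups did not overlap (edgeR adjusted p = 0.538). Foxo1, which activates Klf2 in T cells, stood at 465 ± 38.7 CPM untreated and 531 ± 33.8 CPM treated. The kinase Map3k3, upstream of ERK5, had a log2 fold change of 0.35 ± 0.20, and the ubiquitin ligase Wwp1 0.32 ± 0.22. Of 11 cofactors 10 were tested, 9 lay above 0 and none was called, with a median of 0.09. Ctbp1, the corepressor of Klf3 and Klf12, stood at 37.7, 67.7 and 62.5 CPM untreated and at 56.8, 80.1 and 76.6 CPM treated. Fhl3, Crebbp and Hdac3 had log2 fold changes of 1.10 ± 0.76, 0.15 ± 0.14 and 0.34 ± 0.35.

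Genes known to depend on Klf2 in T cells gave mixed values. Of 7 genes that are lower in T cells without Klf2, 5 lay above 0 and none passed edgeR, with a median log2 fold change of 0.30. DESeq2 called 1 of the 7, S1pr1, where it called 0.164% of all tested genes higher. The DESeq2 adjusted p of S1pr1 was 0.0017, the lowest of alternatives that ran up to 0.379. S1pr1, the receptor for exit from tissue, stood at 230, 207 and 215 CPM untreated and at 361, 348 and 346 CPM treated, and the groups did not overlap (edgeR adjusted p = 0.0933). Ccr7, the lymph node chemokine receptor, was high in library 6 alone, at 467 CPM against 127 to 207 CPM in all other libraries, and its adjusted p ran from 0.0488 to 0.992 over the alternatives, 1 of which turned its sign. Il7r had a log2 fold change of 0.21 ± 0.20. Library 6 was also the highest in Klf2 (447 CPM). Libraries 4 and 5, with Klf2 at 316 and 404 CPM, had Ccr7 at 174 and 150 CPM. The part of Klf2 in the level of Ccr7 was not tested.

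Of 6 genes that are higher in T cells without Klf2, 5 were tested, with 3 above 0 and 2 below. None passed edgeR. DESeq2 called 1 of the 5 lower, a gene not reported here, where it called 0.058% of all tested genes lower. The groups did not overlap in 2 of the 5, both lower after anti-PD-1 (background 6.44%). Ccr3 stood at 56.3, 55.2 and 36.7 CPM untreated and at 31.5, 30.9 and 15.5 CPM treated, without overlap (log2 fold change -0.92 ± 0.29, edgeR adjusted p = 0.426). Cxcr3, the receptor for interferon-induced chemokines, had the opposite sign, at 35.9, 73.2 and 94.5 CPM untreated and 108, 121 and 89.8 CPM treated, with overlap. Cxcr5 had a log2 fold change of 0.78 ± 0.47.

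Genes of TGF-beta signaling, the pathway of Klf10, gave no call. Of 10 tested, 6 lay above 0, none was called by edgeR or DESeq2, and the median log2 fold change was 0.03. The receptor gene Tgfbr1 stood at 283, 306 and 383 CPM untreated and at 233, 287 and 250 CPM treated (log2 fold change -0.33 ± 0.16). Smad3, Tgfbr2 and the inhibitor Skil stood at 0.25 ± 0.18, 0.18 ± 0.17 and -0.15 ± 0.16.

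Some KLF genes are themselves early response genes that enzymatic dissociation of tissue is known to induce. A list of 21 early and dissociation response genes without KLF members is therefore given here. All 21 lay above 0, as did 50.1% of tested genes. Of the 21, 2 were called higher by edgeR (background 0.029%) and 5 by DESeq2 (background 0.164%), and the median log2 fold change was 0.48 against 0.00 over all tested genes. Their summed level ran from 5245 to 5965 CPM in the untreated and from 7225 to 7978 CPM in the treated libraries. The groups did not overlap, with treated higher, in 11 of the 21 (background 7.18%), and they overlapped in the other 10. The 4 with the smallest p were Jun, Rhob, Fos and Ier2. Jun and Rhob were called by edgeR (log2 fold changes 1.11 ± 0.16 and 1.65 ± 0.26, adjusted p = 0.0034 and 0.00707), though each missed the threshold in some alternatives (adjusted p up to 0.0539 and 0.124). Fos stood at 107, 98.5 and 111 CPM untreated and at 165, 241 and 191 CPM treated. Egr1 (0.07 ± 0.21), Dusp1 (0.11 ± 0.14) and Nr4a1 (0.24 ± 0.17), chosen for mention after their values were seen, had small fold changes with overlapping groups. Hspa1a (1.39 ± 0.30), Hspa1b (1.42 ± 0.38) and Socs3 (0.96 ± 0.23), chosen in the same way, had larger fold changes without overlap. EdgeR called none of these (adjusted p = 0.287, 0.461 and 0.161), and DESeq2 called Hspa1a (adjusted p = 0.00026). The part of this response in the levels of Klf2, Klf3, Klf6 and Klf7 was not tested.

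Library profiles most like that of Klf2 were looked for among 8704 other genes with a mean of at least 5 CPM, by the root mean square distance of log2 levels centred on each gene's own mean over the 6 libraries. The nearest were Wdr18 (0.20), Fam101b (0.27), Rhob (0.28), Jun (0.32) and Snhg12 (0.33), where the median distance to all genes was 0.93. Within the family Klf3 came nearest to Klf2 at place 12 (0.39), then Klf7 at place 69, and Klf12 was farthest at place 4898. For Klf3 the nearest were Ndor1 (0.18), Ap5b1 (0.18), Aff3 (0.20), Ppapdc1b (0.22) and Ppard (0.22), with a median of 0.72 over all genes. These distances share the 6 libraries and their treatment groups, so that any gene with a like difference between groups ranks near.

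The genes beside Klf2 and Klf3 on the chromosome were read as well. The nearest tested genes to Klf2 were Ap1m1, 61683 bases to its left, and Eps15l1, 19343 bases to its right. Ap1m1 stood at 31.6, 29.0 and 30.1 CPM untreated and 33.2, 35.3 and 39.2 CPM treated, and Eps15l1 at 39.3, 52.5 and 36.8 against 49.4, 37.5 and 45.6 CPM. Their log2 fold changes were 0.24 (95% interval -0.30 to 0.79) and 0.05 (-0.46 to 0.56). For Klf3 the nearest tested genes were Tbc1d1, 452037 bases to its left, and Tlr1, 94551 bases to its right. Tbc1d1 had a log2 fold change of 0.29 (95% interval -0.09 to 0.66) and Tlr1 of 0.43 (-0.04 to 0.91). The adjusted p of these 4 neighbours in edgeR ran from 0.644 to 0.972.

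Leaving out each library in turn shows which members rest on a single library. Klf2 kept a log2 fold change between 1.58 and 1.83 and was called by edgeR each time. Klf3 ranged from 1.05 to 1.35, Klf6 from 0.37 to 0.56, Klf7 from 0.86 to 1.32 and Klf13 from 0.22 to 0.28, all above 0. Klf10 stayed between 0.00 and 0.09. Klf4, Klf9 and Klf12 took both signs.

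**Figure D5:**
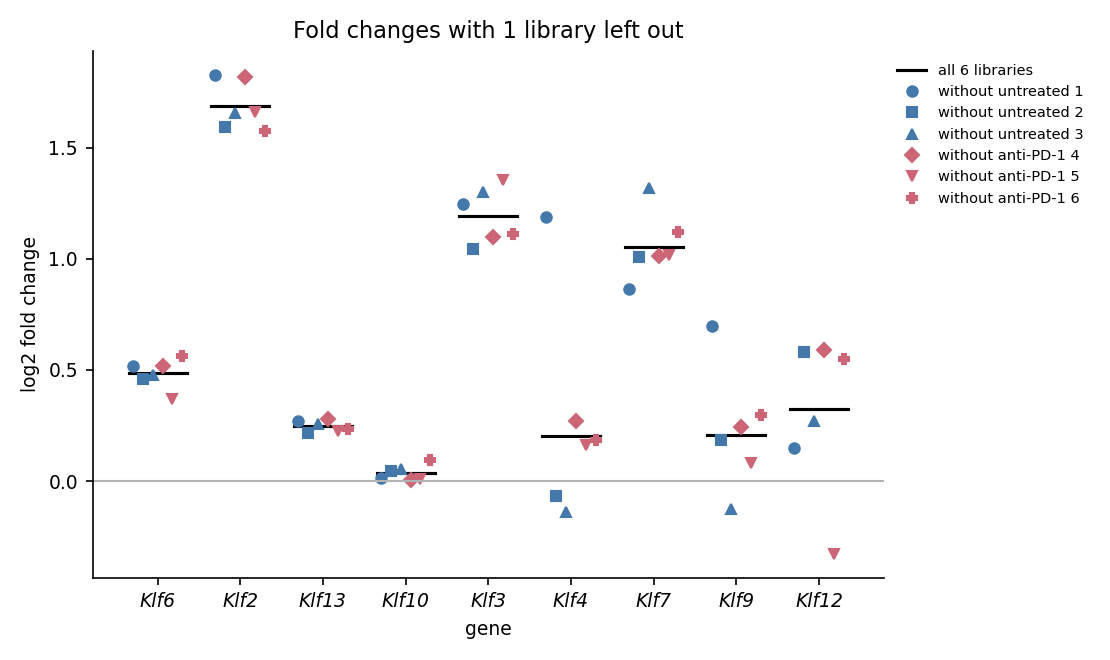
Log2 fold change of each KLF gene from edgeR with all 6 libraries (black line) and with 1 library left out (symbols, colored by the group of the library). The values of Klf2 stay between 1.58 and 1.83, while those of Klf4, Klf9 and Klf12 cross 0.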

How the data were processed

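RNA of sorted tumor Tregs was sequenced in 6 libraries made with the NuGEN Ovation SoLo kit, per the labels' protocols. The authors deposited whole-number counts for each gene, unscaled, made from read pairs with featureCounts 1.5.2 on the UCSC mm10 annotation, by strand, per the file headers, with a length for each gene model (other unit: bases). The sources used here do not give read filters or the handling of duplicates. A column without a name, holding 6 values, was not used. From the counts, edgeR 4.0.16 (R 4.3.3) kept 10352 genes by filterByExpr (a count of 10, 15 in total) that hold 99.8% of counts, scaled libraries by TMM and ran a two-sided quasi-likelihood test (robust, treatment as the only term), adjusted by Benjamini-Hochberg across the tested genes, with a threshold of 0.05. SEs and 95% intervals come from that fit. No replicate number occurs in both groups, so nothing was paired.

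Alternatives were DESeq2 1.42.0, limma-voom (limma 3.58.1), other scalings, no filter, edgeR's earlier quasi-likelihood fit and leaving out each library. The earlier fit and GENCODE lengths were chosen after seeing the data. The members and gene lists were chosen with earlier results of these data known. Named beside the 9 members are KLF and SP genes with a mean of at least 5 CPM, the 4 listed genes of each pathway with the smallest p (2 of these are not reported here), the 5 nearest profiles and the chromosomal neighbours of Klf2 and Klf3. Promoter windows come from RefSeq (GRCm38.p6), matched by symbol for 8 members. 1 listed marker matched no symbol and 2 matched through a synonym.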

Additional observations from a re-analysis of the deposited data

How the results depend on the processing

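Of 117 refitted fold changes of the 9 KLF genes (13 alternatives each), 110 kept their direction and their side of the threshold. Klf2 passed in all 13. Klf3 passed without a filter on low counts (log2 fold change 1.18), in DESeq2 (1.19) and without untreated library 1, and ranged from 1.05 to 1.35 with 1 library left out. In those 3 settings 2 members were called higher instead of 1. Klf4 turned to -0.07 without untreated library 2 and to -0.14 without untreated library 3, Klf9 to -0.13 without untreated library 3, and Klf12 to -0.33 without anti-PD-1 library 5. With 1 library left out, Klf4 reached 1.19, Klf9 0.70 and Klf12 0.59. The cause was not tested.

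Over all genes, 3 were called higher and 0 lower by edgeR, where 421 stood lower at an unadjusted p under 0.05. The counts were 5 higher with upper-quartile scaling, 6 higher and 1 lower with total counts only, 36 and 16 without a filter, 17 and 6 in DESeq2 and 4 and 1 in limma-voom. With 1 library left out they ran from 1 (without anti-PD-1 library 5) to 12 higher and from 0 to 7 lower (both highest without untreated library 1). In the order by level, 5 of 9 members kept their place in CPM not divided by length, 5 in the anti-PD-1 libraries alone and 4 with GENCODE lengths. The last setting divided counts made on the deposited models by GENCODE lengths, so it cannot settle the lower places. No paired analysis was possible because the groups share no replicate number. Klf7 had the fewest counts of the 9 genes, 25 to 62 per library, and the widest interval.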
